A study of Mus musculus with 8 samples.

Results

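The Notch receptors, their ligands and their best known target genes were followed in the dental pulp of the first molar at postnatal day 7 (P7), in mice with and without a deletion of the TGFβ receptor gene *Tgfbr2*. The genes were listed by name: the receptors *Notch1*, *Notch2*, *Notch3* and *Notch4*, the ligands *Jag1*, *Jag2* and *Dll4*, and the targets *Hes1*, *Hey1* and *Heyl*. Of these 10 genes, 9 were found by Ensembl identifier among the 12148 genes of the RNA-Seq table, and *Notch4* was not analysed here. The 8 libraries came from C57BL/6J mice at P7. Osterix-Cre controls gave 4 of them, numbered 49 to 52 in their titles, and mice with Osterix-Cre and floxed *Tgfbr2* (genotype Osterix-Cre:Tgfbr2f/f, here Tgfbr2cko) gave the other 4, numbered 53 to 56. Both genotypes therefore carry the Cre transgene, whose Osterix promoter is active in dental mesenchyme and odontoblasts, which directs the deletion to those cells, while whole pulp also holds vessels, nerves and immune cells. Each pulp sample combined left and right molars, and the labels do not say which libraries came from separate animals, so p-values measure the spread between these libraries only.

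Notch receptors are single-pass membrane proteins that are activated by Jagged and Delta-like ligands on a neighbouring cell. Binding leads to shedding by an ADAM protease and a cut by γ-secretase, and the freed intracellular domain joins RBPJ and a Mastermind coactivator on DNA to switch on repressors of the Hes and Hey families. In vessels, *Dll4* is an endothelial ligand that restrains sprouting, and *Notch3* and *Heyl* are typical of mural cells, the pericytes and smooth muscle cells around the endothelium. In the developing tooth, Notch genes are known from the enamel epithelium and from the pulp.

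Expression values are read counts per 1e6 counted reads, on the log2 scale (log2 CPM), and between 8682872 and 13539670 reads per library fell on the 12148 genes. *Tgfbr2* itself had log2 CPM values of 7.16, 7.62, 7.64 and 7.52 in Osterix-Cre and of 7.02, 7.00, 7.16 and 7.61 in Tgfbr2cko. Libraries 53 and 54 lay below all controls for the deleted gene, library 55 lay level with the lowest control and the library labelled Tgfbr2cko 56 lay near the highest, and the genotypes did not differ beyond their spread in it (log2 fold change -0.29, SE 0.17, adjusted p = 0.790 in limma-trend). The log2 fold change of *Tgfbr2* ran from -0.42 to -0.22 in the 8 fits that left out 1 library and from -0.42 to -0.26 under 9 other settings. It passed the unadjusted threshold of 0.05 only without library 56 (-0.42), without the control library 49 (-0.39) and with library weights (-0.42). The reads were counted over the whole gene and not over the floxed part alone. Library 56 had 18.5% of its reads on the enamel matrix genes *Amelx* and *Ambn*, against 0.326% to 2.74% in the others, so results are also given without it where that matters. Pulp markers of dental mesenchyme were present, all 6 of 6 measured, as were odontoblast markers, 6 of 6.

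The bases just upstream of the start are shown for *Dll4*, the ligand that differed between the genotypes, and for *Notch3*, a receptor with a smaller difference. Both windows hold the short SMAD element, a DNA word bound by SMAD proteins downstream of TGFβ receptors, which is printed in capitals (CAGAC, or GTCTG on the other strand). They come from RefSeq on GRCm38.p6 and run 5′ to 3′ along the gene, at chr2:119325534-119325783 on the plus strand for *Dll4* and at chr17:32166891-32167140 on the minus strand for *Notch3*.
Dll4: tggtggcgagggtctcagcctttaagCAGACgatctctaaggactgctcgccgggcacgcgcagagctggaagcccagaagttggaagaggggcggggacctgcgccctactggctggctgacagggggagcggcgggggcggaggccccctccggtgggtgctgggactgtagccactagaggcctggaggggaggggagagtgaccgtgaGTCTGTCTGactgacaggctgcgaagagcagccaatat
Notch3: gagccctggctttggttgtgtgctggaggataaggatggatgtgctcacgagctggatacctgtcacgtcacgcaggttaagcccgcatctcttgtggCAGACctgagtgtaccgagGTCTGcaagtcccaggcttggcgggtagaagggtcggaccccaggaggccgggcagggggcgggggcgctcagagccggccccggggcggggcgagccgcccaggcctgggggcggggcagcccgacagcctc
The *Dll4* window had 3 matches, the last pair of which share a base, and the *Notch3* window had 2. RefSeq windows were matched for 6 of the 9 genes, all but *Hes1*, *Hey1* and *Heyl*. The element was in 3 of these 6 (*Dll4*, *Notch3* and *Jag1*, which did not pass the test) and in 42.2% of all 32851 upstream windows of 250 bases. It was in none of the windows of *Notch1*, *Notch2* and *Jag2*, of which *Notch1* was lower at an unadjusted p under 0.05 in limma-trend. The core word of RBPJ sites, TGGGAA or TTCCCA on the other strand, was in 0 of the 6 and in 21.6% of all windows. A match is a word in the sequence and not a measured binding site.

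Among the 9 genes, the endothelial ligand *Dll4* and the mural target *Heyl* were lower in Tgfbr2cko, each at about 50% of its control level. The receptors *Notch1* and *Notch3* had smaller differences in the same direction, while *Notch2*, *Jag1*, *Jag2*, *Hes1* and *Hey1* did not pass the test. Altered genes were those with an unadjusted p under 0.05 in limma-trend whose levels differed at least 1.5-fold, and the p-values printed here are adjusted ones. By this rule 2 of 9 were altered, both lower, where 5.77% of all genes were altered in either direction and 3.65% were altered and lower. At an unadjusted p under 0.05 alone, 4 of 9 passed, all lower, against 8.38% of all genes. After Benjamini-Hochberg adjustment over all 12148 genes, limma-trend called 0 of the 9 and 0.947% of all genes. The same adjusted threshold called 1, *Dll4*, when libraries of one genotype and title number were averaged, and 0 under the other 8 settings and in the 8 fits that left out 1 library. The median log2 fold change of the 9 genes was -0.33, that of *Hey1*, against -0.01 over all genes, and it was -0.20 without library 50 and -0.22 without library 56. In whole pulp, fewer cells of a type and less RNA per cell cannot be told apart.

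**Figure D1:**
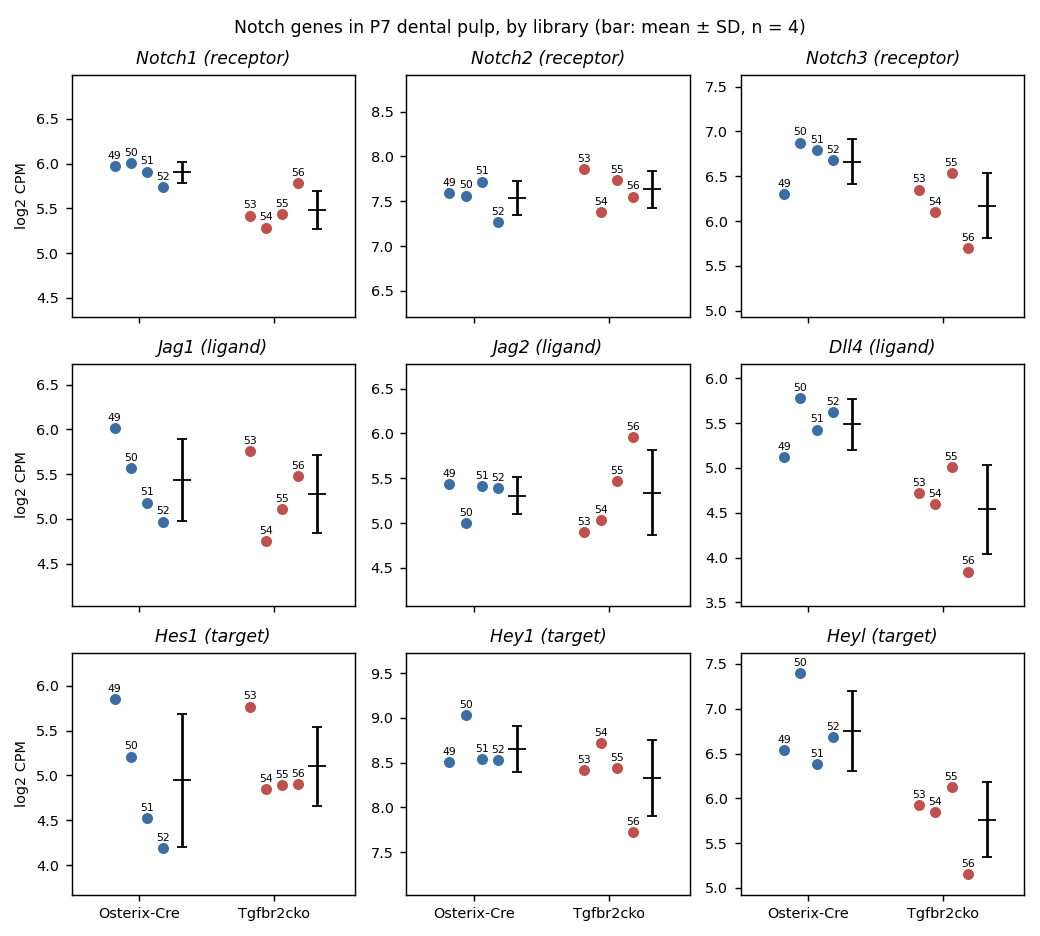
Each panel shows 1 gene, with its log2 CPM in the 4 Osterix-Cre (blue) and 4 Tgfbr2cko (red) libraries, numbered as in their titles, and bars for mean ± SD. In the *Dll4* and *Heyl* panels every red point lies below every blue point, and in the other 7 the groups overlap.

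Of the receptors, *Notch3* (ENSMUSG00000038146.7, chr17:32120820-32166852 on GRCm38, minus strand) is the one of mural cells. Its log2 CPM was 6.30, 6.88, 6.79 and 6.68 in Osterix-Cre and 6.35, 6.10, 6.53 and 5.70 in Tgfbr2cko. The groups overlapped, with 2 of 4 mutant libraries below the lowest control, which is library 49. The means were 6.66 ± 0.25 and 6.17 ± 0.36 (SD, n = 4 each). The log2 fold change was -0.49 (SE 0.19, 95% interval -0.91 to -0.08), with adjusted p = 0.424 in limma-trend. It passed the unadjusted threshold with all libraries, but not in 4 of the 8 fits that left out 1 library: without the library labelled Tgfbr2cko 56 it was -0.33, without library 50 -0.42, without library 51 -0.45 and without library 54 -0.47. It did not pass either with the enamel matrix level in the model, at -0.36 (adjusted p = 0.580). Without library 49 or without library 55, the fold change was -0.61 and *Notch3* counted as altered.

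*Notch1* (ENSMUSG00000026923.15, chr2:26457903-26516663, minus strand) is the receptor that endothelium and many other tissues use. It measured 5.97, 6.00, 5.91 and 5.74 log2 CPM in Osterix-Cre and 5.42, 5.28, 5.43 and 5.78 in Tgfbr2cko. Libraries 53, 54 and 55 lay below all controls, and the library labelled Tgfbr2cko 56, which also had control-range *Tgfbr2*, lay among them. The log2 fold change was -0.42 (SE 0.15, 95% interval -0.75 to -0.10, adjusted p = 0.331), under the 1.5-fold limit. It passed the unadjusted threshold with all libraries and in all 8 fits that left out 1 library, with fold changes of -0.53 to -0.36.

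*Notch2* (ENSMUSG00000027878.11, chr3:98013527-98150361, plus strand), a receptor of mesenchymal and many other cells, gave 7.59, 7.56, 7.72 and 7.27 log2 CPM in Osterix-Cre and 7.86, 7.38, 7.74 and 7.55 in Tgfbr2cko. These ranges overlapped almost completely, and the log2 fold change was 0.10 (SE 0.15, adjusted p = 0.995). The 95% interval, -0.24 to 0.43, leaves room for a change of less than 1.5-fold either way. With 1579 to 2540 reads per library, *Notch2* was the most deeply covered receptor.

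Of the ligands, *Dll4* (ENSMUSG00000027314.6, chr2:119325784-119335962, plus strand) differed most. Its log2 CPM was 5.12, 5.78, 5.43 and 5.62 in Osterix-Cre and 4.72, 4.59, 5.01 and 3.84 in Tgfbr2cko. Every mutant library lay below every control, with 0.11 between the nearest of them (libraries 55 and 49), and library 56 was the lowest. The means were 5.49 ± 0.28 and 4.54 ± 0.50 (SD, n = 4 each), so the mutants were 48.2% lower. The log2 fold change was -0.95 (SE 0.24, 95% interval -1.46 to -0.43), with adjusted p = 0.0974 in limma-trend. Without library 56 it was -0.72 (adjusted p = 0.107), and with the enamel matrix level in the model it was -0.76 (adjusted p = 0.172). Values rest on 194 to 531 reads per library.

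A transcript on the opposite strand, *Gm14207*, covers 5.56% of the exon bases of *Dll4*. It had 26 to 115 reads per library and was also lower in the mutants without overlap (log2 fold change -1.35, SE 0.33, adjusted p = 0.0885). The cDNA kit and the tagmentation kit used here do not mark strand, so that reads of this pair cannot be told apart where their exons overlap. *Notch1*, *Notch2* and *Notch3* also share 2.91% to 7.50% of their exon bases with annotated transcripts, none of which was analysed here.

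*Jag1* (ENSMUSG00000027276.7, chr2:137081456-137116644, minus strand), a ligand of pulp, epithelium and arteries, measured 6.01, 5.57, 5.18 and 4.97 log2 CPM in Osterix-Cre and 5.76, 4.75, 5.11 and 5.48 in Tgfbr2cko. Controls and mutants spread over the same range, with a log2 fold change of -0.16 (SE 0.25, 95% interval -0.70 to 0.39, adjusted p = 0.995). *Jag2* (ENSMUSG00000002799.6, chr12:112907819-112929776, minus strand), a ligand known from the enamel epithelium, gave 5.43, 4.998, 5.41 and 5.39 in Osterix-Cre and 4.90, 5.03, 5.46 and 5.96 in Tgfbr2cko. Library 56, the one rich in enamel transcripts, was the highest of the 8 for *Jag2*, and the part of those transcripts in it was not tested. The log2 fold change of *Jag2* was 0.03 (SE 0.22, 95% interval -0.44 to 0.51, adjusted p = 0.998), and -0.20 with the enamel matrix level in the model. The interval of *Jag2* stays under 1.5-fold in both directions, while that of *Jag1* holds a 1.5-fold lower level.

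Of the targets, *Heyl* (ENSMUSG00000032744.4, chr4:123233556-123249875, plus strand), a repressor that Notch3 signalling induces in mural cells, had, with *Dll4*, the largest difference of the 9 genes. Its log2 CPM was 6.54, 7.39, 6.39 and 6.68 in Osterix-Cre and 5.93, 5.84, 6.13 and 5.16 in Tgfbr2cko. No mutant library reached the lowest control, with 0.26 between libraries 55 and 51. The means were 6.75 ± 0.45 and 5.76 ± 0.42 (SD, n = 4 each), so the mutants were 49.5% lower. The log2 fold change was -0.99 (SE 0.24, 95% interval -1.51 to -0.46), with adjusted p = 0.0854 in limma-trend. It was -0.78 (adjusted p = 0.119) without library 56. Groups without overlap and lower in the mutants were found for 2 of 9 genes, *Dll4* and *Heyl*, and for 3.14% of all genes.

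*Hey1* (ENSMUSG00000040289.8, chr3:8663359-8667256, minus strand), the related repressor used by endothelium and bone-forming cells, measured 8.50, 9.03, 8.54 and 8.53 in Osterix-Cre and 8.42, 8.72, 8.44 and 7.72 in Tgfbr2cko. Although 3 of 4 mutant libraries lay below the lowest control, the log2 fold change of -0.33 (SE 0.21, 95% interval -0.78 to 0.13) did not pass the test (adjusted p = 0.833). Without library 56 it was -0.12. *Hes1* (ENSMUSG00000022528.7, chr16:30064384-30067796, plus strand), the repressor that answers Notch in most tissues, had the widest spread among controls, 5.85, 5.21, 4.53 and 4.19, against 5.77, 4.85, 4.89 and 4.90 in Tgfbr2cko. Its log2 fold change was 0.16 (SE 0.32, 95% interval -0.54 to 0.86, adjusted p = 0.998), and the interval holds a 1.5-fold higher level.

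Under 9 other settings of the fit and in the 8 fits that each left out 1 library, *Dll4* and *Heyl* were altered in all 17 cases. Their log2 fold changes ran from -1.10 to -0.72 for *Dll4* and from -1.11 to -0.77 for *Heyl*. Adjusted p ran from 0.0381 to 0.300 for *Dll4* and from 0.0539 to 0.236 for *Heyl* over the same 17 cases. Between the mutant libraries 54 and 55 and the control library 51, which share the number 2 in their titles, the differences were -0.63 for *Dll4* and -0.40 for *Heyl*, given without a test.

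**Figure D2:**
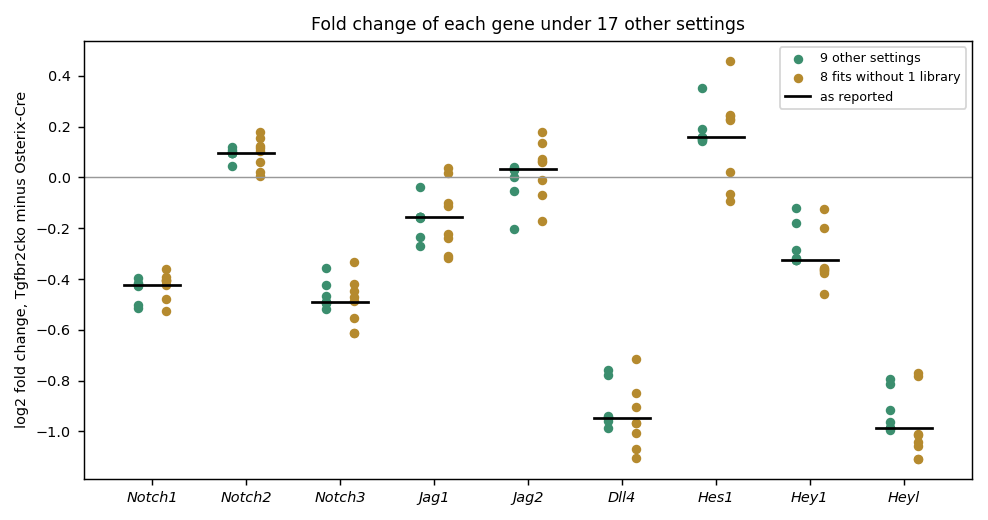
For each gene the log2 fold change (Tgfbr2cko minus Osterix-Cre) is drawn as reported (black line), under 9 other settings (green) and in 8 fits without 1 library (ochre). *Dll4*, *Heyl*, *Notch1*, *Notch3* and *Hey1* stay below 0 throughout, *Notch2* stays above it, and *Jag1*, *Jag2* and *Hes1* cross it.

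Levels of different genes were compared only per length, as CPM per kilobase of exon (RPKM). In Osterix-Cre, *Hey1* had by far the highest level, 125 ± 23.7 RPKM (SD, n = 4), followed by *Heyl* with 21.9 ± 7.49. The next were *Notch2* with 17.3 ± 2.19, *Hes1* with 16.7 ± 8.68, *Notch3* with 12.7 ± 2.08 and *Dll4* with 11.8 ± 2.25. *Jag1* with 7.69 ± 2.52, *Jag2* with 5.72 ± 0.764 and *Notch1* with 4.22 ± 0.331 were the lowest. The control ranges separate *Hey1* from *Heyl* and *Jag2* from *Notch1*, while every pair of neighbours between *Heyl* and *Jag2* overlapped, so that their order is not fixed by these libraries. With the longest transcript in place of all exons, *Jag2* and *Notch1* overlapped and *Notch2* was separate from *Notch3*.

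In Tgfbr2cko, *Heyl* was at 10.9 ± 2.84 RPKM and in place 4, behind *Hey1*, *Notch2* and *Hes1*, and *Dll4* was at 6.28 ± 1.92 and in place 7, behind *Jag1*. *Notch2* made up 46.6% to 55.9% of the summed RPKM of the 3 measured receptors in the controls and 57.8% to 62.9% in the mutants, without overlap. Its own log2 fold change was 0.10, and a share also rises when the other receptors are lower. The share of *Notch3* was 30.4% to 41.2% in the controls and 23.1% to 33.4% in the mutants. *Heyl* took 11.5% to 15.6% of the summed target level in the controls and 7.27% to 10.2% in the mutants. The share of *Dll4* among the 3 ligands was 34.3% to 52.9% and 18.3% to 40.5%, with overlap. These shares were chosen after the values were seen and carry no test.

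**Figure D3:**
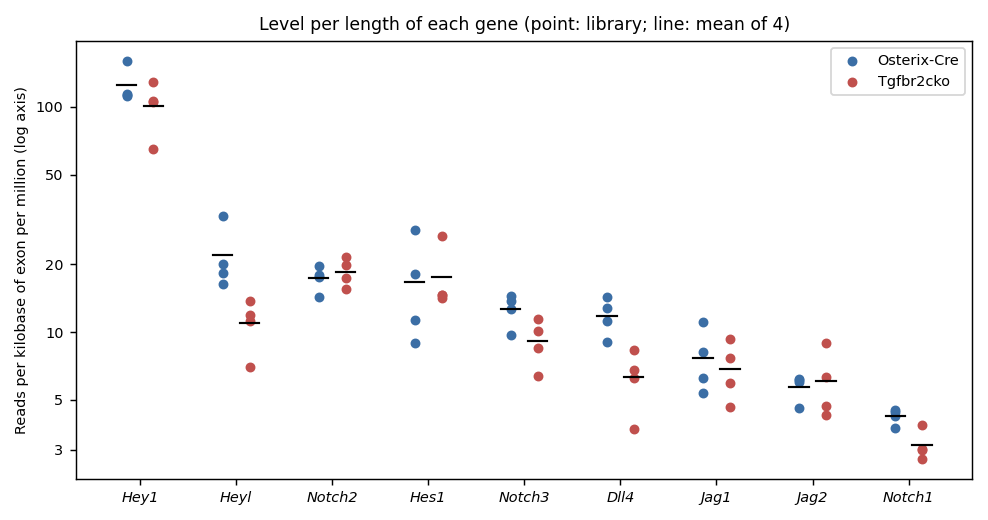
The RPKM of each gene (log axis) is shown for every library of Osterix-Cre (blue) and Tgfbr2cko (red), ordered by the control mean, with lines for the means of 4. *Hey1* stands above all other genes in both genotypes, and the red points of *Heyl* and *Dll4* lie below the blue ones.

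The other genes of the pathway were taken from a list by role, of which 46 of 53 were measured. Of these, 2 of 46 were altered, both lower, where 5.77% of all genes were altered. At an unadjusted p under 0.05 there were 3 of 46, all lower, against 8.38% of all genes, so both counts are near the share of all genes, and limma-trend called 0 after adjustment. Their median log2 fold change was 0.05, and 44 of 46 lay within 0.5 of 0. *Dtx4*, a Deltex ubiquitin ligase that acts on Notch receptors during endocytosis, had 5.16, 5.70, 5.66 and 5.57 log2 CPM in Osterix-Cre and 4.32, 4.95, 5.14 and 4.36 in Tgfbr2cko. All mutants were below all controls, though narrowly, and the log2 fold change was -0.83 (SE 0.21, adjusted p = 0.108). *Maml2*, a Mastermind coactivator, measured 5.02, 5.11, 4.79 and 4.86 in Osterix-Cre and 4.77, 4.17, 3.92 and 3.77 in Tgfbr2cko. Its groups were also separate by a narrow gap, at library 53, and the log2 fold change was -0.79 (SE 0.22, adjusted p = 0.140). Both were altered in all 17 other settings and left-out fits, and *Maml2* had an adjusted p under 0.05 in 2 of them, with library weights and without library 53.

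Beside *Maml2*, other core genes named here were not altered. *Rbpj*, the DNA-binding partner of the receptors, had a log2 fold change of 0.20 (SE 0.18, adjusted p = 0.931), and its coactivator *Maml1* had 0.17 (SE 0.20). The shedding protease *Adam10* had 0.09 (SE 0.15), and the γ-secretase subunit *Ncstn* had 0.14 (SE 0.15). *Pofut1*, which adds the O-fucose that receptors need, had 0.10 (SE 0.16). Adjusted p was 0.931 to 0.995 for these 5 genes.

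Among modifiers and inhibitors, *Lfng*, a Fringe enzyme that biases receptors toward Delta-like ligands, had low values of 1.14 to 3.63 log2 CPM and a fold change of -0.07 (SE 0.45, adjusted p = 0.998). The inhibitor *Numb* had 0.39 (SE 0.21, adjusted p = 0.728) and its relative *Numbl* -0.46 (SE 0.16, adjusted p = 0.302), the latter without overlap and past the unadjusted threshold but under the 1.5-fold limit. *Nrarp*, a target that feeds back on the receptors, had 18 to 53 reads per library and a log2 fold change of -0.40 (SE 0.38, adjusted p = 0.945), with a 95% interval of -1.22 to 0.41 that holds a 1.5-fold lower level. *Aph1b*, a γ-secretase subunit, was the only listed gene with every mutant above every control, but its log2 fold change of 0.31 did not pass the test (SE 0.18, adjusted p = 0.753). The share of all genes with that pattern was not counted. Lower in the mutants without overlap were 3 of the 46 pathway genes and 3.14% of all genes. The ligand *Dll1* had -0.05 (SE 0.32, adjusted p = 0.998).

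**Figure D4:**
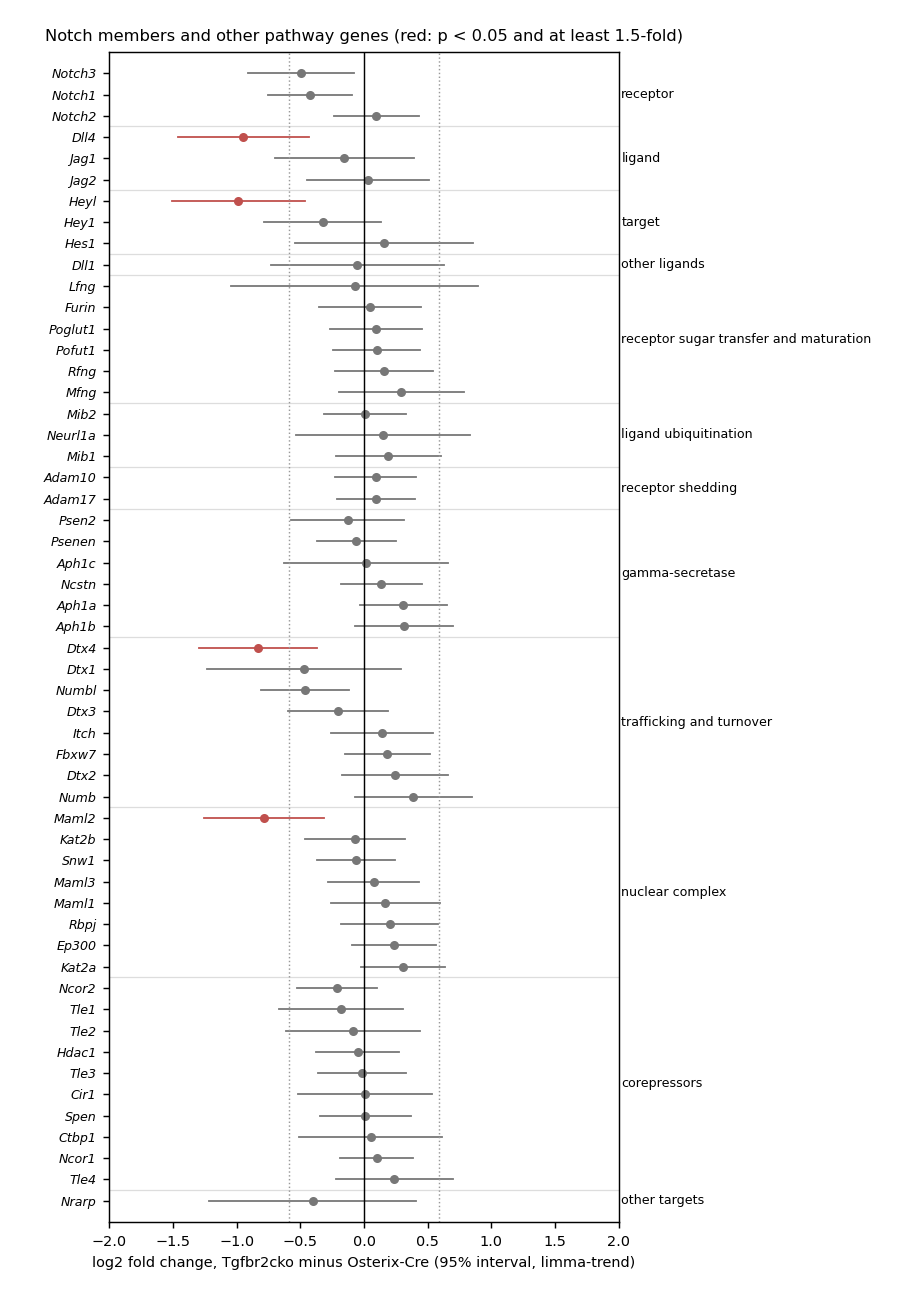
Log2 fold changes (Tgfbr2cko minus Osterix-Cre) with 95% intervals are shown for the 9 genes and other pathway genes by role, with dotted lines at 1.5-fold and altered genes in red. The 4 red genes, *Dll4*, *Heyl*, *Dtx4* and *Maml2*, all lie left of 0.

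The means over the endothelial and over the mural markers were also lower in Tgfbr2cko, beside *Dll4*, *Heyl* and *Notch3*. The median of the mural markers was not. Of 10 endothelial markers, all had a lower mean in Tgfbr2cko and 2 were altered, the tight junction gene *Cldn5* and the angiopoietin receptor *Tek*, where 3.65% of all genes were altered and lower. *Cldn5* measured 4.69, 5.32, 4.62 and 4.73 log2 CPM in Osterix-Cre and 3.43, 3.34, 3.66 and 3.81 in Tgfbr2cko, with a log2 fold change of -1.28 (SE 0.20, adjusted p = 0.00853). *Tek* had -0.64 (SE 0.17, adjusted p = 0.124), and *Emcn*, a venous and capillary sialomucin, had -0.42 (SE 0.14, adjusted p = 0.276), past the unadjusted threshold only. The summed endothelial level was 415 to 571 CPM in the controls and 341 to 437 CPM in the mutants, and the mean log2 difference was -0.42, with or without library 56. *Pecam1*, *Cdh5*, *Kdr*, *Tie1*, *Egfl7*, *Esam* and *Robo4* had fold changes of -0.39 to -0.15, none at an unadjusted p under 0.05. For CD31, the protein of *Pecam1*, the authors found no significant difference between the genotypes in stained first molars.

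Of 10 mural markers 7 were measured, without *Tagln*, *Myh11* and *Des*. *Rgs5*, a G-protein regulator of pericytes, had a log2 fold change of -0.83 (SE 0.16, adjusted p = 0.0212), and *Pdgfrb*, the pericyte growth factor receptor, had -0.69 (SE 0.23, adjusted p = 0.282). The other 5 ran from -0.54 to 0.26 and none passed. They were *Acta2* (-0.54), *Abcc9* (-0.12), *Kcnj8* (-0.06), *Mcam* (0.02) and *Cspg4* (0.26), the last pair higher in Tgfbr2cko. The summed mural level was 597 to 871 CPM in the controls and 432 to 805 CPM in the mutants, with a mean log2 difference of -0.28, or -0.25 without library 56.

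Each vessel gene was therefore also set against its markers within the same library. *Dll4* minus the mean of the endothelial markers was 0.06 ± 0.10 in Osterix-Cre and -0.46 ± 0.45 in Tgfbr2cko, on the log2 scale. Every mutant value was below every control, and the difference of -0.52 had p = 0.0286 in a two-sided exact permutation test, the smallest p that 70 arrangements allow. Over the 3 such tests the adjusted p was 0.0857, and without library 56 the difference was -0.30 (exact permutation p = 0.0286). Without any 1 of the controls 49, 50, 51 and 52 the difference was -0.57 to -0.49 and the exact permutation p rose to between 0.0571 and 0.0857.

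*Heyl* minus the mural markers was 0.57 ± 0.37 and -0.13 ± 0.38, a difference of -0.71 (exact permutation p = 0.0571, adjusted 0.0857), and -0.86 without library 51 (exact permutation p = 0.0286). Without any 1 of the other 7 libraries it was -0.82 to -0.53, with an exact permutation p of 0.0571 to 0.114. *Notch3* minus the mural markers was 0.49 ± 0.17 and 0.28 ± 0.30, a difference of -0.21 (exact permutation p = 0.314, adjusted 0.314). It was -0.079 without the library labelled Tgfbr2cko 56 and -0.32 without library 55. These differences turn on how the mural markers are summarised. With their median in place of their mean, they were -1.14 for *Heyl* and -0.64 for *Notch3*, each with an exact permutation p of 0.0286. Both exceed in size the fold changes of the genes themselves, -0.99 and -0.49, so the median of the mural markers was not lower in Tgfbr2cko.

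**Figure D5:**
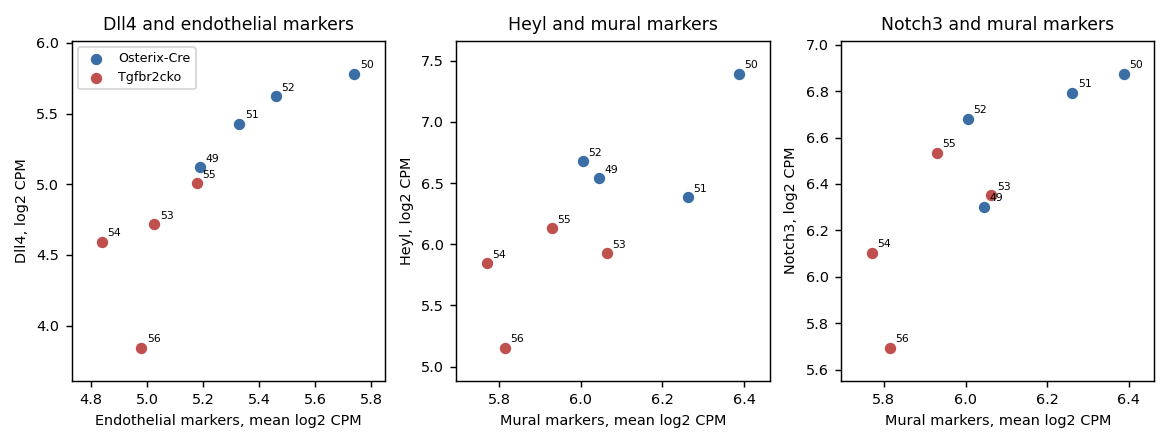
Each point is a library of Osterix-Cre (blue) or Tgfbr2cko (red), numbered as in its title, with the mean log2 CPM of the vessel markers on the horizontal axis and the log2 CPM of *Dll4*, *Heyl* or *Notch3* on the vertical axis. Library 56 had the lowest *Dll4* of all 8, while its endothelial mean of 4.98 lay between those of libraries 54 (4.84) and 53 (5.03).

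Other cell types also differed between the libraries, and their counts stand against 5.77% of all genes altered in either direction. Of 10 dental epithelium markers 3 were altered and higher, *Krt17* and *Cdh1* among them, with summed levels of 3677 to 22611.5 CPM in the controls and 4111 to 196332 CPM in the mutants. Their mean log2 difference was 1.16, and 0.37 without library 56. Odontoblast markers had a mean difference of -0.57, or -0.41 without library 56, and summed levels of 47699.5 to 101786 CPM and of 29170 to 62875 CPM. Of these 6 markers *Nes* and *Bglap* were altered and lower. *Dspp*, *Dmp1* and *Col1a1* were lower but did not pass, and *Phex* was higher (0.14) and did not pass. Macrophage markers had a mean difference of -0.58, or -0.35 without library 56, with *Ptprc* and *Cd68* altered and lower among 5, and summed levels of 392 to 485 CPM and of 203 to 472 CPM. Dental mesenchyme markers differed by -0.04, or 0.098 without library 56, with 0 of 6 altered. Of 5 Schwann cell markers 2 were measured and 0 were altered. The part of these cell types in the Notch results was not tested.

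Likeness across the 8 libraries was measured as the root mean square difference between log2 values, each gene centred on its own mean. It was taken for the 3 genes with the largest spread, *Heyl* (SD 0.66), *Dll4* (SD 0.63) and *Hes1* (SD 0.57). The genes nearest to *Heyl* were *Cend1* (0.148), *Acot11* (0.185) and *Dll4* itself (0.194). Nearest to *Dll4* were also *Cend1* (0.145), then the cytokine *Il16* (0.147) and the chloride channel *Ano1* (0.170). *Hes1* lay nearest to *Rpl39* (0.134), *Nfya* (0.135) and *1810026B05Rik* (0.145), none of which is among the nearest to *Heyl* or *Dll4*. All genes were measured in the same 8 libraries and share their depth, and these distances are a description.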

How the data were processed

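Pulp RNA was amplified from a low input with SMART-seq HT and made into Nextera XT libraries, kits that do not mark strand. The deposited values are log2 CPM: the authors, per the submitters' processing notes and the methods, trimmed reads with fastp 0.21.0, aligned them with HISAT2 2.1.0 (build GRCm38.p5 in the notes, GRCh38 in the methods) and counted them with featureCounts of Subread 2.0.1 on GENCODE M14. The strand setting of the counting is not given in the sources used here. They then kept genes listed by the CLEAR workflow and applied voom, which adds 0.5 to each count. All 97184 values turned back into reads, each within 1.42e-05 of a whole number, so the depth behind each value is known, and 1 read is 0.0739 to 0.115 CPM. Amplified reads are not independent molecules.

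Symbols, positions and exon lengths came from GENCODE M21 on GRCm38, matched by identifier without its version (12144 of 12148 genes).

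Genotypes were compared over all genes and 8 libraries with limma 3.58.1 (R 4.3.3), two-sided, with an intensity trend, and p was adjusted over all genes by the Benjamini-Hochberg method. The code was tested on simulated data. Vessel genes minus their markers were compared by two-sided exact permutation. RPKM used the recovered reads and the union of exons.

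The members and lists were chosen with earlier results of these data known. Named were the 10 listed genes, *Tgfbr2*, altered pathway genes, listed core genes, cell type markers and the 3 nearest genes to each of the 3 most variable members. *Numbl*, *Aph1b*, *Dll1* and *Gm14207* were named after their values were seen. Alternatives were no trend, library weights, voom weights, quantile normalization, median centring, a mean log2 value of at least 3, 2 reads added, averaging by title number, an enamel matrix covariate and leaving out each library. A few listed genes are not reported here but stay in all fits and counts. Figures were drawn with matplotlib 3.10.9.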

Additional observations from a re-analysis of the deposited data

Results flagged for a closer look

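In 4 of 32 groups of 4 libraries, 1 library stood apart from the other 3 by Dixon's test, which chance alone passes in about 1 of 20 groups. *Jag2* was lowest in the Osterix-Cre library 50, at 4.998 log2 CPM, where the nearest control was at 5.39. *Hes1* was highest in the library labelled Tgfbr2cko 53, at 5.77, where the nearest mutant was at 4.90. *Hey1* was highest in the Osterix-Cre library 50, at 9.03, against 8.54 for the nearest control. *Dll4* minus the endothelial markers was lowest in the library labelled Tgfbr2cko 56, at -1.13, where the nearest mutant was at -0.31.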

How the results depend on the processing

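The number of altered Notch genes was 2, *Dll4* and *Heyl*, under 9 other settings and 2 to 3 with a library left out, and it was 0 at a 2-fold limit and 0 at an adjusted p under 0.05. Of the other pathway genes, *Dtx4* and *Maml2*, also 0 were altered at either limit. *Notch3* lost its unadjusted p under 0.05 with the enamel matrix covariate (-0.36). With the median of the mural markers, *Notch3* minus mural markers was -0.64 and *Heyl* minus mural markers was -1.14, both past the threshold that the mean missed. The mean of the mural markers was lower in Tgfbr2cko (-0.28), while their median was not. With a library left out, *Heyl* minus mural markers ran from -0.86 to -0.53 and *Dll4* minus endothelial markers from -0.62 to -0.30. The exact permutation p of the latter was 0.0571 to 0.0857 without any 1 of the 4 controls and 0.0286 without any 1 mutant. The sign of *Jag2* reversed with library weights (-0.053) and with the enamel matrix covariate (-0.20), and its fold change ran from -0.17 to 0.18 with a library left out, that of *Jag1* from -0.32 to 0.038 and that of *Hes1* from -0.094 to 0.46, with no unadjusted p under 0.05. Other settings moved the median log2 fold change of all genes by less than 0.1. Per length by the longest transcript, *Notch1*, *Jag2* and *Hey1* were at 6.32, 7.80 and 168 RPKM in the controls, and *Hes1* came before *Notch2*, *Jag2* overlapped *Notch1* and *Notch2* was separate from *Notch3*. No paired analysis was run: the genotypes share no library number and, of the unexplained title numbers, 2 alone, for which the differences are given without a test. A fit blocked on title number would rest its genotype contrast on control 51 and mutants 54 and 55 alone. The comparison of *Notch4* with endothelial markers was not run. All measured endothelial and mural markers had a mean log2 value of at least 3, so that filter left their summaries as they were.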
